A study of Mus musculus with 8 samples.

Results

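The named DNA transposon and Helitron families of the mouse genome were examined in meiotic and post-meiotic male germ cells with and without the histone variant H3.3B. They were taken from the repeat count table by the start of the family name (Charlie, Tigger, Kanga, Looper, Zaphod, Cheshire, Arthur, Ricksha, Helitron, URR, Chap, Zombi or Chompy), which gave 79 of 1208 repeat families. There were 34 Charlie, 19 Tigger, 7 Kanga, 4 Arthur, 4 Ricksha, 4 Helitron, 2 URR1, 2 Zaphod, 2 Cheshire and 1 Looper families, and 0 families named Chap, Zombi or Chompy. The purpose of the study was to define the role of H3.3B in spermatogenesis, and these comparisons ask whether RNA from such elements differs between the 2 stages and between H3.3B genotypes.

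DNA transposons move by cut and paste: a transposase encoded by an autonomous copy binds the terminal inverted repeats of an element, excises it and inserts it elsewhere. Charlie, Cheshire and URR1 elements belong to the hAT-Charlie lineage, Arthur and Zaphod to the hAT-Tip100 lineage, Tigger and Kanga to the Tc1/mariner superfamily, Looper to piggyBac and Ricksha to the MuDR group, whereas Helitrons replicate by a rolling circle and carry no terminal inverted repeats. In the mouse these elements are old, immobile fossils, most of them shared with other placental mammals, and URR1 is restricted to rodents. Copies lie between and within genes, so that RNA matching a family need not start at a transposon promoter.

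RNA-seq had been done on 8 libraries in 4 groups of 2, WT and KO cells of a meiotic and of a post-meiotic fraction, from C57BL/6 males aged 3 to 6 months. The labels give the genotype as H3.3BWT/WT :Actin Cre WT for WT and H3.3BKO/KO :Actin Cre WT for KO, so that the entry Actin Cre WT is shared by both. The KO derives from conditional knock-out/knock-in mice carrying loxP sites in H3f3b, the gene of H3.3B. The fractions were separated by sedimentation through a BSA gradient and pooled after microscopy, the post-meiotic pool being mainly round spermatids. The extraction protocol in the labels gives the tubules of a single mouse as the source of the RNA. Whether libraries that share a number share a mouse is not given in the sources used here. With 2 libraries in a group the p-values rest on a spread pooled over all 4 groups. That spread is also shared in part across repeat families, or across genes. Very small p-values therefore do not measure the spread between mice for a single family.

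H3f3b, the deleted gene, had 36885 and 32641 counts in the meiotic and 14727 and 12130 in the post-meiotic WT libraries. In KO these were 621 and 1107 at the first stage, and 407 and 442 at the second. Gene counts per library ran from 57853283 to 92836630 and repeat counts from 8995050 to 18865521. From the WT meiotic to the WT post-meiotic fraction 8 of 9 meiotic prophase markers were lower and 10 of 10 spermatid markers higher (edgeR, adjusted p under 0.01, against 32.4% of 20412 genes lower and 29.6% higher), and in the KO transition these counts were the same (31.5% of genes lower and 29.5% higher). No marker of the cell types listed was at 0 in a library. The summed level of the 7 Leydig cell markers was 209 to 255 CPM in the WT meiotic libraries against 18.2 to 27.5 in the WT post-meiotic ones, and that of the 8 peritubular and fibroblast markers was 35 to 38.8 against 124 to 162 CPM, so that the stages also differed in the RNA of somatic cells.

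All 79 families had reads in every library, from 5 to 46451 counts per family and library. Levels are given as RPM, here reads of the family divided by the repeat counts of the library and multiplied by 1000000, which depend on how many copies of a family the genome holds and how long they are and so are not levels per copy. The mean over the 8 libraries ran from 0.974 RPM for Cheshire_Mars to 2399 RPM for URR1B, with a median of 40.7. There were 27 families with a mean of at least 100 RPM, 41 between 10 and 100 and 11 under 10.

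The 79 families together took a nearly constant share of the repeat counts. The share was 1.4 and 1.33% in WT meiotic, 1.24 and 1.3% in KO meiotic, 1.32 and 1.39% in WT post-meiotic and 1.37 and 1.31% in the KO post-meiotic ones. KO meiotic libraries lay below both WT meiotic and KO post-meiotic ones, by little, and with 2 libraries against 2 an exact permutation test cannot go below 0.333. Beside it, 2 abundant entries of the repeat table, 7SLRNA and 7SK (the RNAs of the signal recognition particle and of the transcription elongation regulator), took 23.1 and 26.4% of repeat counts in WT meiotic and 30.4 and 27.7% in KO meiotic libraries. With these entries left out of the total, the 79 families had shares of 1.82 and 1.81% in WT meiotic and 1.78 and 1.8% in KO meiotic libraries. Relative to gene counts in place of repeat counts the post-meiotic values were lower: the reads of the 79 families were 0.261% of gene counts on average in WT and 0.255% in KO meiotic cells, but 0.206% in WT and 0.238% in KO post-meiotic cells (means of 2 libraries, not tested). The KO meiotic libraries thus lay above the KO post-meiotic ones relative to gene counts, and below them relative to all repeat counts. With 7SLRNA and 7SK left out of the repeat counts they did not lie below them.

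A few families held most of these reads. The 12 most abundant took 72.8% of all counts of the 79 families, and URR1A and URR1B alone took 32.4% to 35.6% in each library. URR1B was at 2675 and 2508 RPM in WT meiotic, 2339.9 and 2462 in KO meiotic, 2252 and 2309.8 in the WT post-meiotic libraries and 2374 and 2270.5 in the KO post-meiotic ones. URR1A was at 2294 and 2119.8, 1999 and 2131, 2054 and 2176 and 2212 and 2164 RPM in the same order. Relative to repeat counts none of the log2 changes of the URR1 pair reached 0.5, whereas relative to the total of gene counts URR1B fell past that limit in the WT transition. The ratio of URR1B to URR1A was 1.17 and 1.18 in WT meiotic and 1.17 and 1.16 in KO meiotic against 1.1 and 1.06 in the WT post-meiotic libraries and 1.07 and 1.05 in the KO post-meiotic ones.

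After URR1 came Tigger7 with means of 911, 876, 1127 and 1144 RPM in WT meiotic, KO meiotic, WT post-meiotic and KO post-meiotic cells, and Charlie8 with 795, 734, 1279.7 and 1102. The next were Charlie1a with 944, 870.3, 719 and 778 RPM and Tigger5 with 548, 529, 696 and 659. Relative to repeat counts Tigger7 and Tigger5 were higher, and Charlie1a lower, in the post-meiotic fraction of both genotypes, each by less than 0.5 on the log2 scale. Relative to the total of gene counts all families shifted by -0.33 in the WT transition, and Charlie1a fell past that limit there. Charlie1, Tigger1, Charlie5, Charlie13b, Cheshire and Charlie1b completed the 12, with WT meiotic means of 408, 344, 280.4, 196, 264 and 234 RPM.

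**Figure D1:**
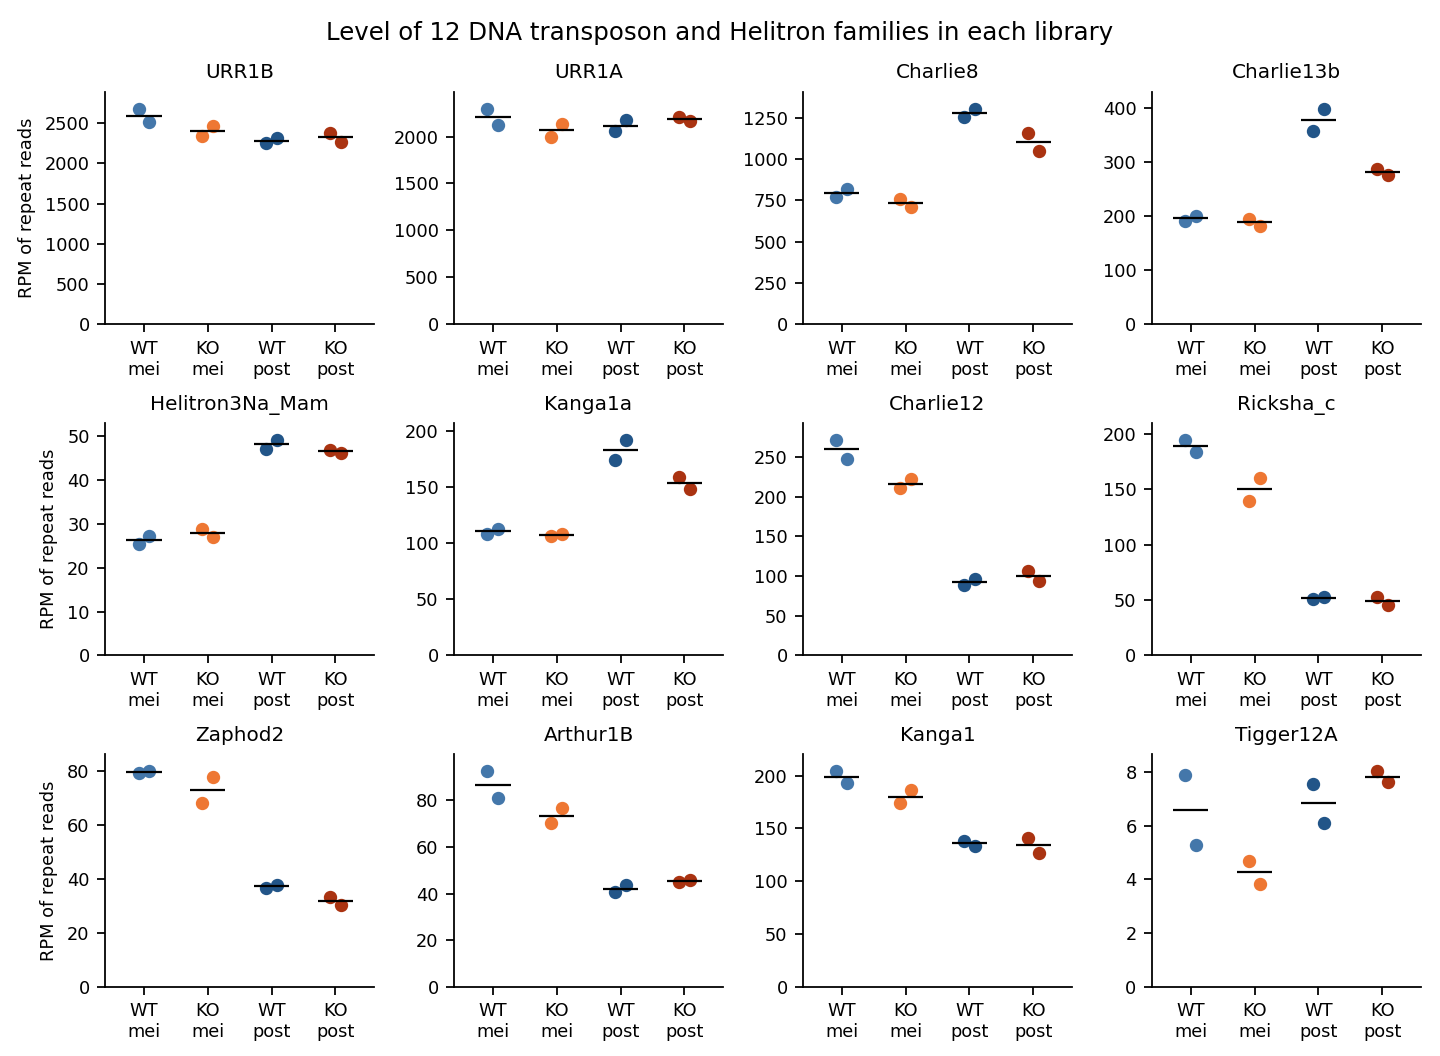
Level of 12 families in each library, in RPM of repeat counts on axes that start at 0. Each point is 1 library, the line is the mean of the 2 libraries of a group, and mei and post stand for the meiotic and post-meiotic fractions. Ricksha_c, Charlie12, Zaphod2, Arthur1B and Kanga1 were lower and Charlie8, Charlie13b, Helitron3Na_Mam and Kanga1a higher in the post-meiotic libraries, while URR1A and URR1B changed little.

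Between the WT meiotic and post-meiotic fractions the families moved in both directions. Ricksha_c, Charlie12, Zaphod2, Arthur1B and Charlie19a fell most, and Charlie13b, Helitron3Na_Mam, Helitron2Na_Mam and Arthur1A rose most. Of 75 families with a mean of at least 5 RPM in either group, 11 rose and 13 fell past the limits used for repeats (edgeR quasi-likelihood test, log2 change beyond 0.5 in either direction at an adjusted p under 0.01). Among all 967 repeat families tested 11.3% rose and 11.6% fell. The libraries of the 2 stages lay apart without overlap in 35 families that were higher and 28 that were lower after meiosis. This was so in 460 and 313 of all 967 families. The median log2 change was 0.05 over the 75 families and 0.08 over all families, and the median size of the change regardless of sign was 0.39 against 0.27. Without the fold limit 22 rose and 25 fell, against 30.7% and 23.8% of all families. In bulk RNA, fewer cells of a type and less RNA per cell cannot be told apart.

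Ricksha_c, of the MuDR group, was at 195 and 183 RPM in the meiotic and 51.3 and 52.8 in the post-meiotic WT libraries. Its log2 change was -1.86 ± 0.08 (SE, adjusted p = 4.72e-117). The groups lay far apart, and the other Ricksha families tested did not share the fall: Ricksha changed by -0.27 ± 0.10 and Ricksha_0 by 0.42 ± 0.18, neither past the limits. The ratio of Ricksha_c to Ricksha was 4.75 and 5.48 in the meiotic and 1.85 and 1.53 in the post-meiotic WT libraries.

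Charlie12, an hAT-Charlie family, was at 271 and 248 RPM in the meiotic and 89.2 and 96.4 in the post-meiotic WT libraries, a log2 change of -1.49 ± 0.07 (adjusted p = 2.58e-95). Zaphod2 went from 79.3 and 79.8 to 36.8 and 37.8 RPM, a change of -1.09 ± 0.09 (adjusted p = 6.93e-33). In contrast Zaphod, the other family of that name, changed by 0.14 ± 0.08 and did not pass the test. Arthur1B went from 92.5 and 81 to 40.9 and 43.5 RPM, a change of -1.04 ± 0.09 (adjusted p = 5.65e-32).

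The remaining falls were smaller. They were -1.04 for Charlie19a, -0.91 for Charlie21a, -0.89 for Charlie26a, -0.77 for Charlie6, -0.75 for Charlie18a and -0.72 for Charlie11 on the log2 scale. Tigger16a, Charlie7a and Kanga1 fell by between 0.62 and 0.55 on that scale. Charlie elements made up 8 of the 13 families that fell and 33 of the 75 tested, a difference in shares that was not tested.

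Charlie13b rose most in WT cells, from 192 and 200 to 358 and 398 RPM, a log2 change of 0.95 ± 0.06 (adjusted p = 1.97e-49). Charlie8, the most abundant family that rose, went from 769 and 820.3 to 1256 and 1303 RPM, a change of 0.69 ± 0.05 (adjusted p = 1.85e-34). Both families were higher in each post-meiotic library than in either meiotic one, as were 460 of all 967 families. Charlie4 was the third Charlie family to rise, by 0.64.

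The Helitrons, rolling-circle elements whose families in the table are non-autonomous, moved one way among those tested. Helitron3Na_Mam went from 25.5 and 27.4 to 47.2 and 49.1 RPM, a log2 change of 0.86 ± 0.10 (adjusted p = 1.04e-16). Helitron2Na_Mam, at 48 and 36 counts in the meiotic and 49 and 75 in the post-meiotic WT libraries, rose by 0.83 ± 0.24 and Helitron1Nb_Mam by 0.67 ± 0.22, both from few reads. All 3 of the tested Helitron families rose, and the fourth, Helitron1Na_Mam, stayed under the 5 RPM minimum. Helitron1Nb_Mam and Helitron2Na_Mam reached that minimum only in the post-meiotic WT group (meiotic WT means of 4.69 and 3.59 RPM). Only a rise could bring these families into the test, so their shared direction is not independent of the filter. Both kept their calls without a filter. The calls of Helitron1Nb_Mam and Helitron2Na_Mam were lost with DESeq2, with TMM or RLE factors over repeat families and relative to gene counts. The summed Helitron level was 36.8 ± 0.398 RPM (SD, n = 2) in the meiotic and 65.1 ± 4.62 in the post-meiotic WT cells.

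Families of a shared name moved apart in the Kanga and Arthur groups of WT cells. Kanga1 went from 204 and 193 to 138 and 134 RPM, a fall with a log2 change of -0.55 ± 0.07. Kanga1a went from 109 and 113 to 174 and 192 RPM, a rise of 0.73 ± 0.07, and Kanga1d and Kanga1b rose by 0.67 and 0.59. The ratio of Kanga1a to Kanga1 was therefore 0.532 and 0.585 in WT meiotic but 1.26 and 1.44 in WT post-meiotic libraries, and 0.614 and 0.582 and 1.13 and 1.17 in the corresponding KO libraries. Likewise the ratio of Arthur1B to Arthur1A was 7.33 and 5.24 in the meiotic and 1.7 and 1.75 in the post-meiotic WT libraries, since Arthur1A rose by 0.80 ± 0.13 from 12.6 and 15.5 to 24 and 24.8 RPM. These pairs were chosen after their values were seen and the ratios were not tested.

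Looper, the single piggyBac family, was at 54.9 and 58.1 RPM in the meiotic and 85.7 and 86.4 in the post-meiotic WT libraries and rose by 0.61 ± 0.08 (adjusted p = 8.76e-13). Cheshire, an hAT-Charlie family, changed by -0.33 ± 0.06, which did not reach the fold limit, and Cheshire_Mars was too low to be tested. Among the 19 Tigger families 0 rose and 1 fell in WT cells, with a median of 0.07. DESeq2 also called 0 higher, and at an unadjusted p under 0.05 edgeR had 9 of them higher, against 384 of all 967 families.

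**Figure D2:**
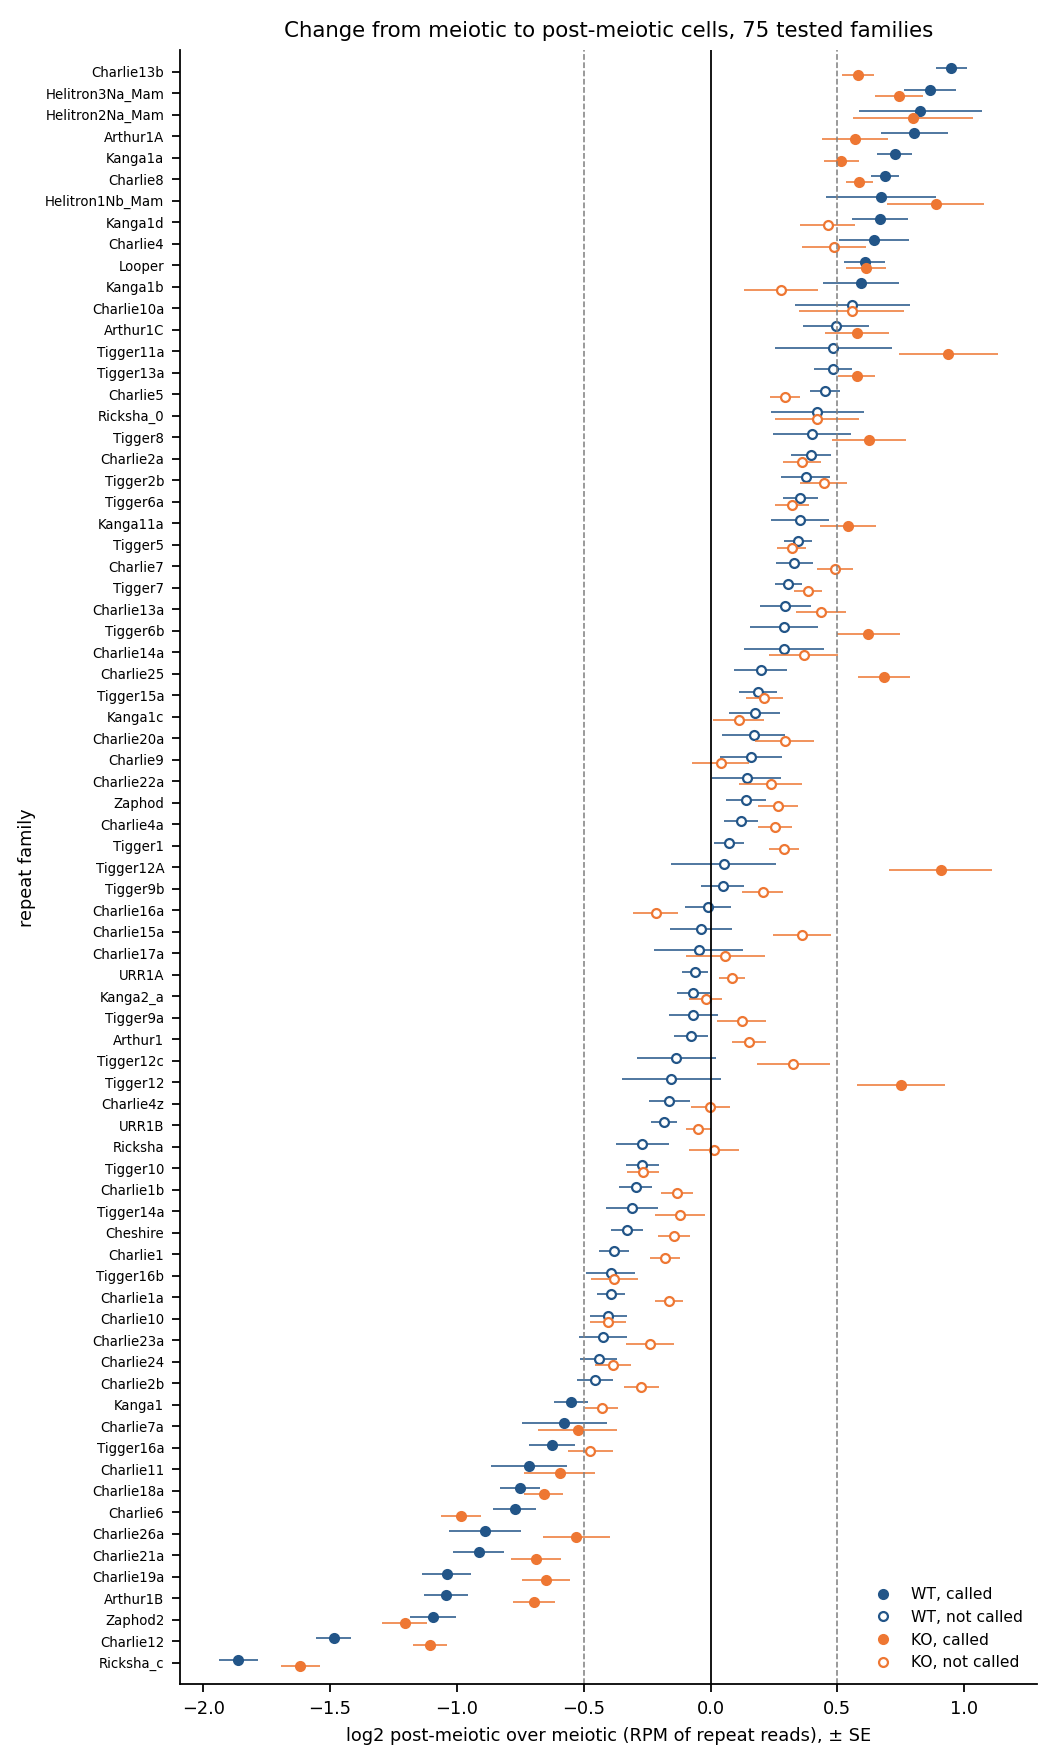
Log2 change from meiotic to post-meiotic cells with its SE for the 75 tested families, in WT cells and in KO cells, ordered by the WT change. Filled points passed both limits (adjusted p under 0.01, and log2 beyond the dashed lines at 0.5 and -0.5), open points did not. The changes run from -1.86 to 0.95 in WT cells, and most families have WT and KO points close together.

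In KO cells the families again moved in both directions. Ricksha_c, Zaphod2, Charlie12 and Charlie6 fell most, and Tigger11a, Tigger12A, Helitron1Nb_Mam and Helitron2Na_Mam rose most. Of 75 tested families 17 rose and 11 fell past the limits, against 11.4% and 7.98% of all 965 families. The median log2 change was 0.24, and 0.16 over all families. Without the fold limit 32 rose and 20 fell, against 41.9% and 17.0% of all families.

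Ricksha_c was at 139 and 161 RPM in the meiotic and 52.9 and 45.2 in the post-meiotic KO libraries, a log2 change of -1.62 ± 0.08 (adjusted p = 3.95e-91). Zaphod2 went from 68.1 and 77.7 to 33.1 and 30.4 RPM, a change of -1.21 ± 0.09 (adjusted p = 1.21e-39). Charlie12 went from 211 and 222 to 107 and 94.3 RPM, a change of -1.11 ± 0.07 (adjusted p = 1.27e-56). In each of these 3 families every post-meiotic library was below every meiotic one, as in 235 of all 965 families. Charlie6 changed by -0.98, and the other 7 falls, of Arthur1B, Charlie21a, Charlie18a, Charlie19a, Charlie11, Charlie26a and Charlie7a, lay between -0.70 and -0.52.

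The rises of KO cells included 6 Tigger families. Tigger11a went from 4.96 and 4.51 to 9.12 and 8.84 RPM (0.94 ± 0.20 on the log2 scale, adjusted p = 5.3e-06) and Tigger12A from 4.7 and 3.82 to 8.03 and 7.62 RPM (0.91 ± 0.20, adjusted p = 2.76e-05). Tigger12, Tigger6b, Tigger8 and Tigger13a rose by 0.75, 0.62, 0.62 and 0.58. Apart from Tigger13a these were sparse families, with at most 22.2 RPM in any library. Tigger11a and Tigger12A reached the 5 RPM minimum only in the post-meiotic KO group, so that only a rise could bring them into this test. Charlie25 rose by 0.68 ± 0.10, from 23.9 and 24.2 to 41.8 and 35.6 RPM, and the 3 tested Helitron families and Looper rose as in WT cells, the latter from 56.7 and 57.4 to 87.2 and 87 RPM. The call of Helitron2Na_Mam was again lost with DESeq2 and with TMM factors. Helitron1Nb_Mam and Helitron2Na_Mam also reached the minimum only in the post-meiotic KO group (meiotic KO means of 4.86 and 3.27 RPM). Without a filter all 28 calls of the KO transition were kept.

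The 2 transitions share no library. Of the families called, 8 rose in both and 11 fell in both, and 0 went opposite ways. The shared calls were 79.2% of the WT calls and 67.9% of the KO calls. Over the 75 families the log2 changes had a Pearson r of 0.92 and a Spearman rho of 0.89, given as a description, since families share libraries and, in part, sequence. Charlie4, Kanga1, Kanga1b, Kanga1d and Tigger16a passed the limits in WT cells only, and Arthur1C, Charlie25, Kanga11a, Tigger11a, Tigger12, Tigger12A, Tigger13a, Tigger6b and Tigger8 in KO cells only. The test of the difference between the transitions is that of the difference of the KO effect, given last. It called none of these 14 families, but relative to gene totals, where all families shifted by 0.16, it called Charlie25, Tigger12 and Tigger12A.

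**Figure D3:**
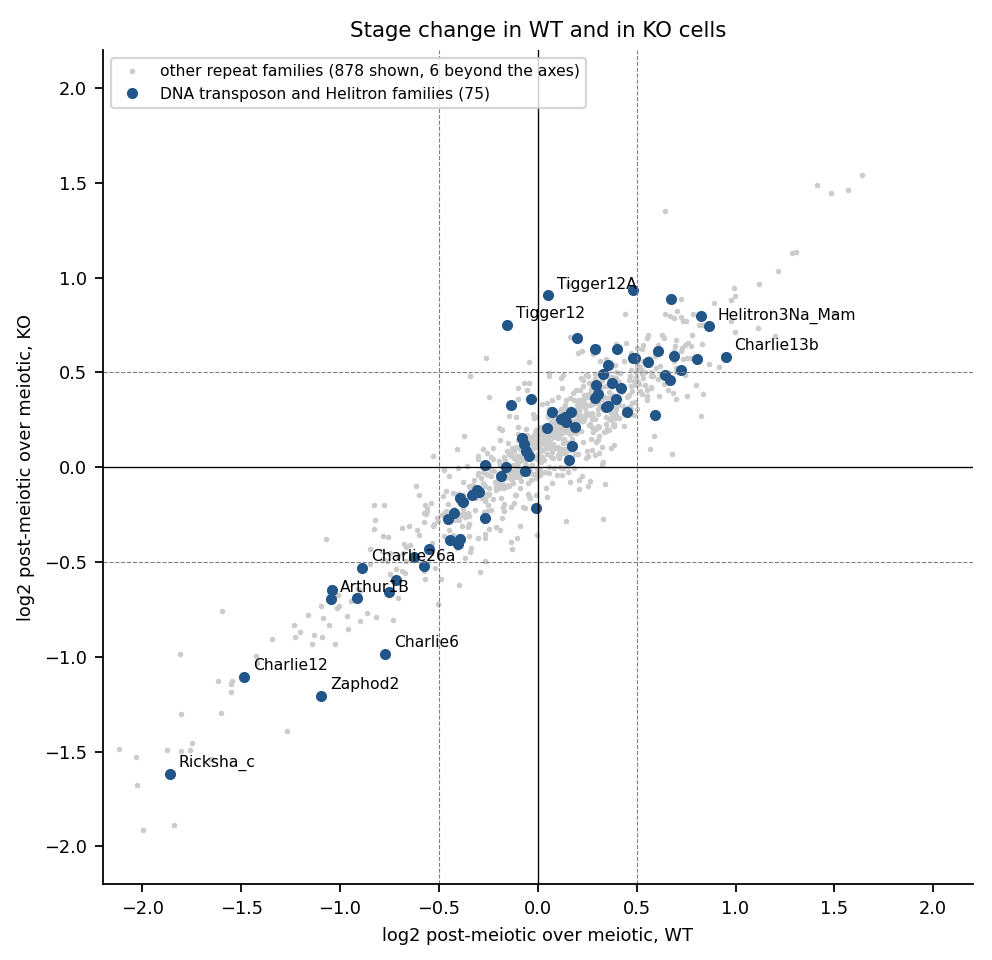
Log2 change from meiotic to post-meiotic cells in WT cells (horizontal) and in KO cells (vertical), each point 1 repeat family. Dark points are the 75 DNA transposon and Helitron families, grey points the other repeat families, and dashed lines mark 0.5 and -0.5. The dark points lie along the diagonal from Ricksha_c at the lower left to Helitron3Na_Mam and Charlie13b at the upper right, with Tigger12A and Tigger12 above it.

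How many families rose depended on the reference of the scale. Relative to the total of gene counts the median of all repeat families shifted by -0.33 in the WT transition and by -0.17 in the KO transition, and 2 families rose and 26 fell in WT cells and 6 rose and 16 fell in KO cells, where more rose than fell relative to repeat counts. With TMM factors over repeat families, which shifted the KO transition by -0.15, the counts were 9 and 15 in WT cells and 6 and 16 in KO cells. No called family changed sign under the 5 scalings tried. Charlie13b and Helitron3Na_Mam rose, and all 13 families fell, under every scaling in WT cells. In KO cells 6 rises (Charlie25, Helitron1Nb_Mam, Helitron3Na_Mam, Tigger11a, Tigger12 and Tigger12A) and all 11 falls held under every scaling. The other called rises kept their sign but missed a limit under at least 1 scaling. With DESeq2 Charlie7a lost its call in both transitions.

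**Figure D4:**
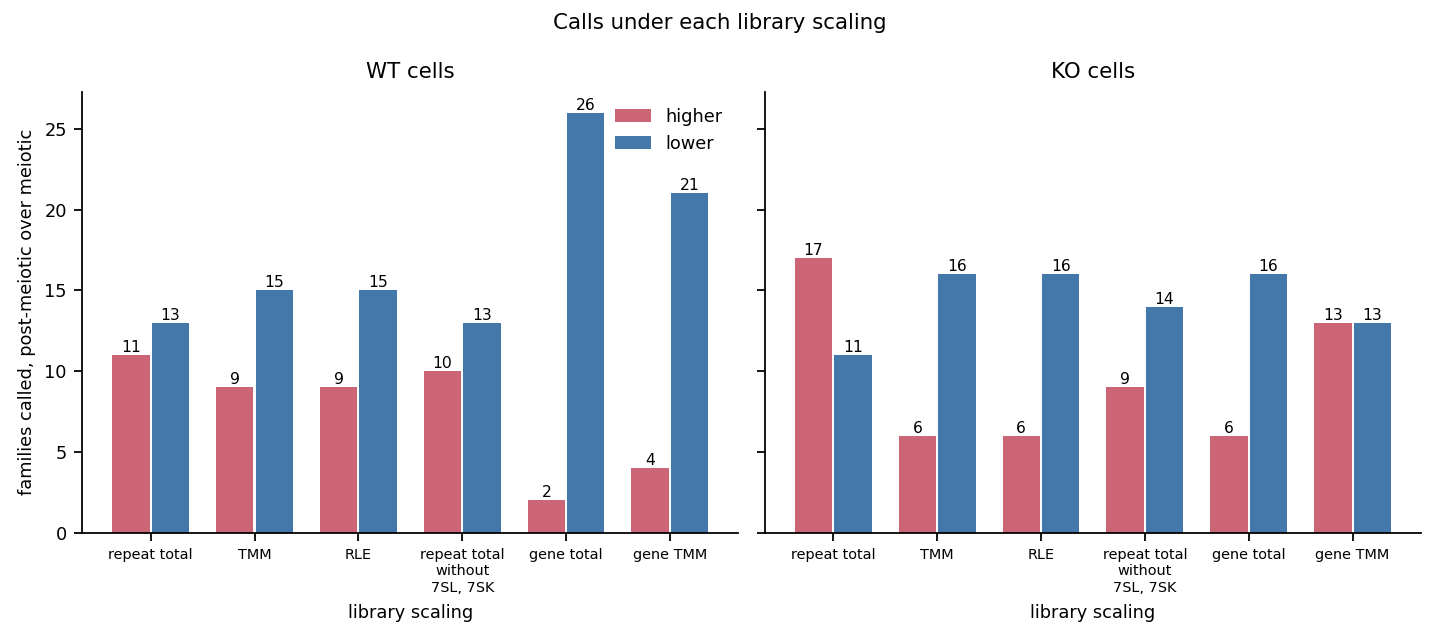
Number of the 75 tested families that rose or fell from meiotic to post-meiotic cells in WT cells and in KO cells under 6 library scalings, the first being the one reported. Bars start at 0. In WT cells the families that rose go from 11 to 2 and those that fell from 13 to 26 when the repeat total is replaced by the gene total.

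Few of these families differed between KO and WT meiotic cells. Of 71 tested families 0 were higher and 1, Tigger12A, was lower in KO than in WT meiotic cells past the limits, against 0.420% and 1.36% of all 953 families. DESeq2 called 0 higher and 0 lower, and at an unadjusted p under 0.05 edgeR had 1 family higher and 21 lower, against 26 and 340 of all 953 families. The median log2 change was -0.12, and -0.10 over all families, whereas with TMM factors all families shifted by 0.11.

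Tigger12A was at 7.89 and 5.27 RPM in WT meiotic and 4.7 and 3.82 in KO meiotic libraries (97 and 58 and 55 and 72 counts), a log2 change of -0.67 ± 0.21 (edgeR, adjusted p = 0.00948). The groups did not overlap, as KO lay below WT without overlap in 556 of all 953 families. The WT libraries differed from each other by more than the nearer WT and KO libraries did. Tigger12A reached the 5 RPM minimum only in the WT group (means of 6.58 in WT and 4.26 RPM in KO). The call was lost under each of the other scalings, with DESeq2, without a filter and with the replicate block. It was also lost without WT meiotic replicate 1, where the change was -0.34, and without KO meiotic replicate 1 or KO meiotic replicate 2.

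Without the fold limit 0 families were higher and 8 lower in KO cells of this stage, against 1.36% and 13.1% of all families. Ricksha_c went from 195 and 183 RPM in WT to 139 and 161 in KO meiotic libraries (-0.33 ± 0.07, adjusted p = 2.77e-05), and Arthur1, of the hAT-Tip100 lineage, from 163 and 162 to 127 and 138 RPM (-0.29 ± 0.07, adjusted p = 0.000171). Charlie12 changed by -0.26 ± 0.06, Charlie23a by -0.36 ± 0.09, Charlie25 by -0.36 ± 0.10, Charlie19a by -0.33 ± 0.09 and Charlie1b by -0.20 ± 0.06. The largest positive changes were 0.28 ± 0.15 for Charlie14a, 0.22 ± 0.08 for Charlie6 and 0.17 ± 0.16 for Charlie17a, none past the test. Beside these values, 7 of 9 meiotic prophase markers were higher and 1, Piwil1, lower in KO meiotic cells (8.98% of genes higher, 8.55% lower). Of 8 spermatogonial markers 3 were higher. The summed levels were 2524 to 2809 against 2341 to 2343 CPM for prophase and 366 to 430.4 against 252 to 258 CPM for spermatogonial markers. Dazl alone was at 269 and 319 CPM in KO against 165 and 162 in WT. In the same comparison 2 of 10 spermatid and 2 of 7 Leydig cell markers were lower, and 2 of 8 leukocyte markers higher. Their part in the differences was not tested.

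In post-meiotic cells 0 of 75 families were higher and 0 lower in KO past the limits, against 0.208% and 0.520% of all 962 families. DESeq2 also called 0 in each direction, and at an unadjusted p under 0.05 edgeR had 6 higher and 9 lower, against 62 and 152 of all 962 families. The median change was 0.02, and -0.01 over all families. Without the fold limit 0 were higher and 4 lower, against 1.04% and 6.34%: Charlie13b, Charlie5, Charlie8 and Kanga1a.

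Charlie13b was at 358 and 398 RPM in the WT post-meiotic libraries and 287 and 276 in the KO post-meiotic ones, a log2 change of -0.42 ± 0.06 (adjusted p = 5.92e-10). Among the meiotic libraries it was at 192 and 200 and 194 and 182 RPM, so the genotypes overlapped there and were apart only in the later fraction. Charlie8 was at 1256 and 1303 RPM in the WT post-meiotic libraries and 1157 and 1047 in the KO ones (-0.22 ± 0.05, adjusted p = 0.00139). Charlie5 went from 364 and 403 to 325 and 317 RPM (-0.26 ± 0.06, adjusted p = 0.000564) and Kanga1a from 174 and 192 to 159 and 148 RPM (-0.25 ± 0.07, adjusted p = 0.00396). Both KO libraries lay below both WT libraries in these 4 families, as they did in 264 of all 962 families.

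The largest positive KO changes in post-meiotic cells were 0.60 ± 0.19 for Tigger12 (adjusted p = 0.0149), 0.54 ± 0.20 for Tigger11a and 0.36 ± 0.15 for Charlie14a. They missed the threshold relative to repeat counts, and all 3 passed it relative to the total of gene counts, where the median of all families shifted by 0.22. Arthur1A and Kanga1b were at -0.36 and -0.34 and missed it too. Beside these values, 5 of 8 peritubular and fibroblast, 5 of 8 leukocyte, 4 of 5 red blood cell and 6 of 9 meiotic prophase markers were higher in KO post-meiotic cells (12.4% of genes higher, 11.6% lower). Also higher were 3 of 8 spermatogonial and 3 of 7 Sertoli cell markers, while 2 of 6 endothelial and 1 of 10 spermatid markers were lower. The summed peritubular and fibroblast level was 253 to 329.7 CPM in KO against 124 to 162 in WT, the leukocyte level 94.4 to 112 against 50.3 to 50.7 and the prophase level 552 to 589.9 against 447 to 449.5. Their part in the differences was not tested.

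**Figure D5:**
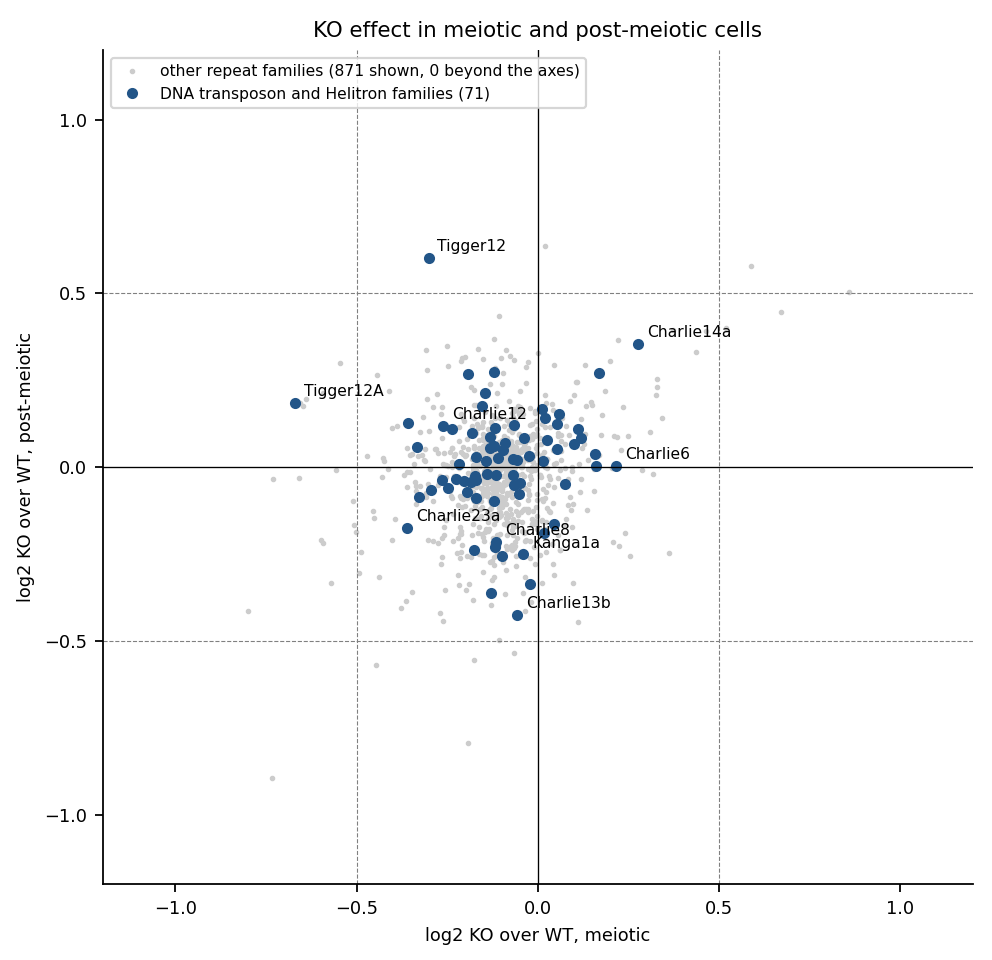
Log2 KO over WT in meiotic cells (horizontal) and post-meiotic cells (vertical), each point 1 repeat family. Dark points are the 71 DNA transposon and Helitron families tested in both, grey points the other families, and dashed lines mark 0.5 and -0.5. Most dark points lie within the dashed lines, with Tigger12A to the left of them, Tigger12 above them and Charlie13b lowest.

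The KO effect was then compared between the stages. Of 75 families 0 differed past the limits in either direction, against 1.23% of all 973 families, and DESeq2 called 0. At an unadjusted p under 0.05 the difference, post-meiotic minus meiotic, was positive in 15 and negative in 2, against 193 and 44 of all 973 families. Without the fold limit 2 families passed, against 3.80%. For Charlie12 the KO effect was -0.26 in meiotic and 0.12 in post-meiotic cells, a difference of 0.38 ± 0.10 (adjusted p = 0.00312). For Charlie13b it was -0.06 and -0.42, a difference of -0.37 ± 0.09 (adjusted p = 0.00133). In both families the change from meiotic to post-meiotic cells was therefore smaller in KO than in WT cells, as a fall in Charlie12 and as a rise in Charlie13b. Tigger12, Tigger12A and Charlie25 had larger differences, of 0.90 ± 0.26, 0.85 ± 0.29 and 0.49 ± 0.15, that missed the threshold (adjusted p = 0.0128, 0.043 and 0.0167). All 3 were called relative to gene totals and to TMM gene library sizes, where all families shifted by 0.16 and 0.12.

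Other DNA transposon families of the table, with names such as MER5A and MER20, mostly short non-autonomous elements, served for comparison. In the WT transition 9 of 59 rose and 3 fell, with a median of 0.16, and in the KO transition 10 of 58 rose and 2 fell, with a median of 0.24. Between KO and WT 0 of 58 passed the limits in meiotic cells, and 0 of 59 were higher and 2 lower in post-meiotic cells. The difference between these counts and those of the named families was not tested.

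Genes descended from DNA transposases were measured as genes in the same libraries, and 16 of 19 listed were found. In the WT transition 2 were higher and 8 lower, against 29.6% and 32.4% of all genes, and in the KO transition 3 were higher and 9 lower, against 29.5% and 31.5% (edgeR, adjusted p under 0.01). Pogk, a pogo-type transposase derivative, was at 62.6 and 63.6 CPM in the meiotic and 23.3 and 26.1 in the post-meiotic WT libraries, a log2 change of -1.35 ± 0.07 (adjusted p = 4.56e-13), and it changed by -1.42 ± 0.07 in KO cells. The piggyBac derivatives Pgbd5 and Pgbd1 fell by 2.27 and 1.29 in the WT transition, and Rag1, the Transib-derived recombinase of antigen receptor genes, fell by 2.43. Tigd5, of the Tigger-derived family, rose by 1.14 ± 0.12 in WT cells and 0.61 ± 0.11 in KO cells, and Rag2 rose by 1.19 ± 0.24 in WT cells from a low level.

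Gtf2ird2, whose human counterpart carries a domain derived from a Charlie8 transposase, was at 37.5 and 37.1 CPM in WT meiotic, 25.3 and 25.3 in KO meiotic, 28.3 and 26.4 in the WT post-meiotic libraries and 20.9 and 21.2 in the KO post-meiotic ones. It was lower in KO cells of both stages, by -0.56 ± 0.06 in meiotic (edgeR, adjusted p = 1.48e-06) and -0.38 ± 0.06 in post-meiotic cells (adjusted p = 0.000163). In the WT transition it fell (-0.45 ± 0.06, on the gene scale). The Charlie8 family rose in that transition relative to repeat counts, but was not called relative to gene counts. Rag1 and Pgbd5 were also lower in KO meiotic cells, by -1.19 ± 0.16 and -0.72 ± 0.12. At that stage 0 of 16 genes were higher and 3 lower, against 8.98% and 8.55% of all genes. Their median log2 change was 0.08, so they did not move as a set toward lower levels. The post-meiotic KO counts were 1 higher and 2 lower, against 12.4% and 11.6% of all genes. In KO post-meiotic cells Zbed4, an hAT derivative, was lower (-0.37 ± 0.07) and Cenpb, the pogo-derived centromere protein, higher (0.63 ± 0.12, from 6.66 and 5.07 to 9.08 and 9.08 CPM). Cenpb was no longer called without WT post-meiotic replicate 2 or without KO post-meiotic replicate 1.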

How the data were processed

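The authors sequenced stranded total RNA libraries and, per their methods and processing notes, used bcl2fastq 2.17.1.14, TopHat2 2.0.14 with Bowtie2 2.1.0 on mm9, keeping unique alignments, and HTSeq 0.6.1 for genes. The deposited repeat table holds raw counts per RepeatMasker family. The counting settings for repeats are not given in the sources used here, and whether reads in families inside genes were counted was not tested. Copies of a family, and related families, share sequence, which limits unique alignment. Columns with the authors' log2 values and p-values and the piRNA cluster table were not used, and consensus sequences were not used here.

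The counts were tested in R 4.3.3 with edgeR 4.0.16 (robust quasi-likelihood fit over 8 libraries and 4 groups, library size being the total of repeat counts, a mean of at least 5 RPM in 1 of the groups compared, Benjamini-Hochberg adjustment over all tested families). A family was called where its log2 change exceeded 0.5 in size and its adjusted p was under 0.01, the limits of the study. The SE is the log2 change divided by the square root of F. A 2 against 2 comparison has little power for families of few reads, whose SE reached 0.24. Gene counts were scaled by TMM and counted at adjusted p under 0.01. The test was checked on simulated data with known changes. These were drawn with less spread than the coefficient of variation of 0.0409 estimated for repeat families. The check was thus easier than the data and gives no error rate for them.

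Families and lists were chosen with earlier results of these data known. Those named are the 12 of highest mean RPM, every call between KO and WT, the 10 largest called changes in each direction of each transition, the 3 largest changes in each direction of each comparison, and all of name groups with 3 or fewer families, 42 in all. Families added to this are named as such calls or pairs. Alternatives were other scalings, DESeq2 1.42.0, other filters, only the libraries compared, a replicate block, each library left out and no fold limit. The scaling without 7SLRNA and 7SK and a crossed pairing, and the alternatives for genes, were chosen after seeing the data.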

Additional observations from a re-analysis of the deposited data

Results flagged for a closer look

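The KO effect on Charlie12 differed between the stages by the test of the difference itself. The difference, post-meiotic minus meiotic, was 0.38 on the log2 scale (edgeR, adjusted p = 0.00312, under the fold limit of 0.5). The level was 271 and 248 RPM in WT and 211 and 222 in KO meiotic libraries, and 89.2 and 96.4 in WT and 107 and 94.3 in KO post-meiotic libraries. Over 18 alternatives the difference lay between 0.29 and 0.54, and the adjusted p ran from 2.24e-05 relative to the total of gene counts to 0.154 without KO post-meiotic replicate 1, being under 0.01 in 9 of them.

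The KO effect on Charlie13b differed the other way, by -0.37 (adjusted p = 0.00133). Its level was 192 and 200 RPM in WT and 194 and 182 in KO meiotic libraries, and 358 and 398 in WT and 287 and 276 in KO post-meiotic libraries. Over 18 alternatives the difference lay between -0.45 and -0.21, with an adjusted p from 0.000862 to 0.0685, the latter relative to the total of gene counts, and under 0.01 in 12 of them. The lower level in KO post-meiotic cells kept an adjusted p under 0.01 in all 15 alternatives that apply to it, with changes between -0.50 and -0.20.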

How the results depend on the processing

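No called family changed sign. In the WT transition, where 11 rose and 13 fell, the counts were 2 and 26 relative to gene totals, 4 and 21 relative to TMM gene library sizes, and 22 and 25 without the fold limit. With a minimum of 50 RPM 4 rose. In the KO transition, where 17 rose and 11 fell, 6 rose with TMM factors, 6 with RLE factors, 6 relative to gene totals and 9 without 7SLRNA and 7SK, and under the first 3 of these 16 fell, so that falls outnumbered rises. With 50 RPM 5 rose and 6 fell, since fewer families were tested, and without the fold limit 32 rose and 20 fell. Leaving out 1 library gave 9 to 13 rises and 12 to 15 falls in the WT transition, and 15 to 19 and 8 to 13 in the KO transition. The single lower family of KO meiotic cells, Tigger12A, became 0 under every scaling, with DESeq2, without a filter and with the replicate block. Without the fold limit 8 were lower. With 5 RPM in each library and with 50 RPM Tigger12A was not tested, and no other family was called. In KO post-meiotic cells 3 families were higher relative to gene totals, where all families shifted by 0.22. There was 1 relative to TMM gene library sizes, with a shift of 0.12, and 4 were lower without the fold limit. Shares of all families called are not given here for the scalings to gene counts. Counts under these scalings are therefore not a result about the 79 families. The difference between stages called 7 higher relative to gene totals, where all families shifted by 0.16. It called 4 higher relative to TMM gene library sizes, with a shift of 0.12, and without the fold limit 1 higher and 1 lower. Leaving out 1 library gave 0 to 1 higher (1 without WT meiotic replicate 2). The share of the 79 families, 1.36% in WT and 1.27% in KO meiotic and 1.35% in WT and 1.34% in KO post-meiotic cells, became 0.261%, 0.255%, 0.206% and 0.238% relative to gene counts, where KO meiotic lay above KO post-meiotic cells, and its mean over libraries ran from 1.32% to 1.34% with 1 library left out. Leaving out 1 library gave 0 to 1 transposase-derived genes higher (0 without WT post-meiotic replicate 2 or KO post-meiotic replicate 1) and 1 to 2 lower (1 without KO post-meiotic replicate 2) in KO post-meiotic cells. In the KO transition it gave 1 to 3 higher (1 without KO meiotic replicate 2 or KO post-meiotic replicate 1). Apart from the scalings, the cause of these moves was not tested. The KO over WT counts of 0 rest on 2 libraries a group, and families under about 10 RPM were measured by few reads.

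Deviations of libraries with the same number correlated between -0.13 and 0.06 over the 6 pairs of groups. No effect shared by libraries of the same number was thus seen. Whether such libraries share a mouse cannot be decided from this, since other spread between the libraries of a group can hide a shared effect. With the replicate block 11 rose and 13 fell in the WT transition and 17 and 11 in the KO transition. Because KO meiotic and KO post-meiotic numbers correlated at -0.13, a crossed replicate block was added, with 17 rises and 11 falls.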
